A study of Mus musculus with 6 samples.

Results

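The synaptic vesicle release machinery is described here as 52 listed genes, of which 50 were measured, among 17858 genes tested on the same arrays. A listed gene was measured when its symbol was the only one assigned to a row of the deposited values. Where a gene had several such rows, as Syn3 did, the brightest by its average across the 6 arrays was taken. The row annotated to Vamp1 also carries another symbol, and neither Vamp1 nor Unc13c was analysed here. Cerebellar total RNA of C57BL/6 mice was hybridised to Affymetrix exon arrays, 3 for mice aged 6wk (6 weeks) and 3 for pups at P7 (7 days after birth). Both ages share the strain, and no treatment or genetic change is given in the labels. The series set out to relate expression to 5-hydroxymethylcytosine, an oxidised form of methylated cytosine, at these ages. Whether the replicates of an age came from different animals is not stated, so p-values measure the spread between these arrays, which may be technical.

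A nerve terminal releases transmitter when a vesicle docks at the active zone, is primed by Munc13 and RIM proteins, and fuses through a complex of the SNARE proteins synaptobrevin, syntaxin and SNAP-25. Synaptotagmins sense the calcium that enters with the action potential and trigger this fusion, complexins hold and assist the complex, and the ATPase NSF takes it apart again. Dynamin, amphiphysin, endophilin and synaptojanin then recover the membrane. In the mouse cerebellum the first postnatal weeks are the period in which granule neurons are born, extend parallel fibres and form most of their synapses on Purkinje cells.

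Values are on the log2 scale, on which a difference of 1 is a doubling, and a difference is always 6wk minus P7. A gene is called when its Benjamini-Hochberg adjusted p from limma, adjusted over all 17858 genes, is under 0.05. Array medians ran from 7.82 to 7.88 at 6wk and from 7.92 to 7.97 at P7, and 3 arrays an age limit the precision. The P7 arrays did not match each other. Gabra6, the GABA-A receptor subunit that defines mature granule neurons, read 12.25, 11.91 and 11.88 in 6wk replicates 1, 2 and 3, and 10.56, 4.91 and 9.36 in P7 replicates 1, 2 and 3. Its value in the library labelled P7 replicate 2 lay below the first quartile of that array (7.03). Averaged over 6 of 7 listed mature granule neuron markers with a row, the level was 11.34 to 11.60 at 6wk, and 10.20, 7.68 and 9.73 in the 3 P7 replicates in order. Of these markers 5 were lower in P7 replicate 2 than in replicate 1, and Calb2 was higher (10.76 beside 9.64). The 6 markers of aminergic neurons of the midbrain and brainstem, such as the dopamine transporter gene Slc6a3, went the other way. Their mean level was 6.72 to 7.58 at 6wk, and 6.58, 9.69 and 9.09 in P7 replicates 1, 2 and 3, and each of the 6 was higher in replicate 2 than in replicate 1. The 5 of 7 listed Purkinje cell markers with a row averaged 10.09 to 10.37 at 6wk, and 9.76, 8.22 and 9.28 in the P7 replicates in order. Among them 4 were lower in P7 replicate 2 than in replicate 1, and Car8 was higher (6.76 beside 6.58). Granule neuron progenitor markers averaged 7.053 to 7.198 at 6wk, and 9.71, 7.73 and 9.30 at P7. Choroid plexus markers were also low in P7 replicate 2 (6.50, beside 8.33 to 9.29 in the other P7 arrays and 8.75 to 9.30 at 6wk). Oligodendrocyte precursor markers averaged 7.48 to 7.66 at 6wk, against 8.74 to 9.42 at P7, and all 4 fell. The means of the interneuron, astrocyte, myelin, microglia and endothelial lists differed by under 1 log2 unit between the P7 arrays, but single markers moved more. All 6 astrocyte markers were lower in P7 replicate 2 than in replicate 1, Gdf10 by 2.75, and among interneuron markers Gad2 was higher by 1.43 and Pvalb lower by 1.57. Results that rest on P7 replicate 2 are therefore given also without it, and with P7 replicate 1 as the only P7 array, an alternative added after seeing the data. In that fit the spread comes from the 6wk arrays only.

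Of the 50 measured members, 12 rose, 8 fell and 30 were not called. Over all genes tested 8.26% rose and 13.4% fell, beside 24% and 16% of the members. The share of rises among members was thus above that of all genes, and the share of falls was near it. Members were chosen with earlier results of these data known, so these shares describe the list and are no test of it. The median log2 difference was 0.10 over the members and -0.05 over all genes. The split depended on scale: centring the arrays on their medians, or a further quantile normalization, gave 17 rises and 6 falls among members, and 2097 and 1704 or 2138 and 1781 over all genes, against 1475 and 2395 as deposited. The values of the ages did not overlap in 29 members, 18 higher and 11 lower at 6wk, which is 58% against 42.1% of all genes. Differences ran from -1.82 for Stx1a to 1.30 for Syt12, and 3 rises and 4 falls were at least 2-fold. Of the 30 members that were not called, with adjusted p from 0.0686 to 0.986, 13 had a 95% interval within 0.5 of 0. Without P7 replicate 2, 16 members rose and 8 fell, where 9.56% and 17.2% of all genes did. With P7 replicate 1 alone, 18 rose and 6 fell, where 7.87% and 14.7% of all genes did. Of the 20 called members, 16 kept their call and direction in both of these fits, 11 of them rises and 5 falls. A call with all arrays that also held whichever of the 6 arrays was omitted was found for 12 members (24%), against 8.49% of all genes.

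**Figure D1:**
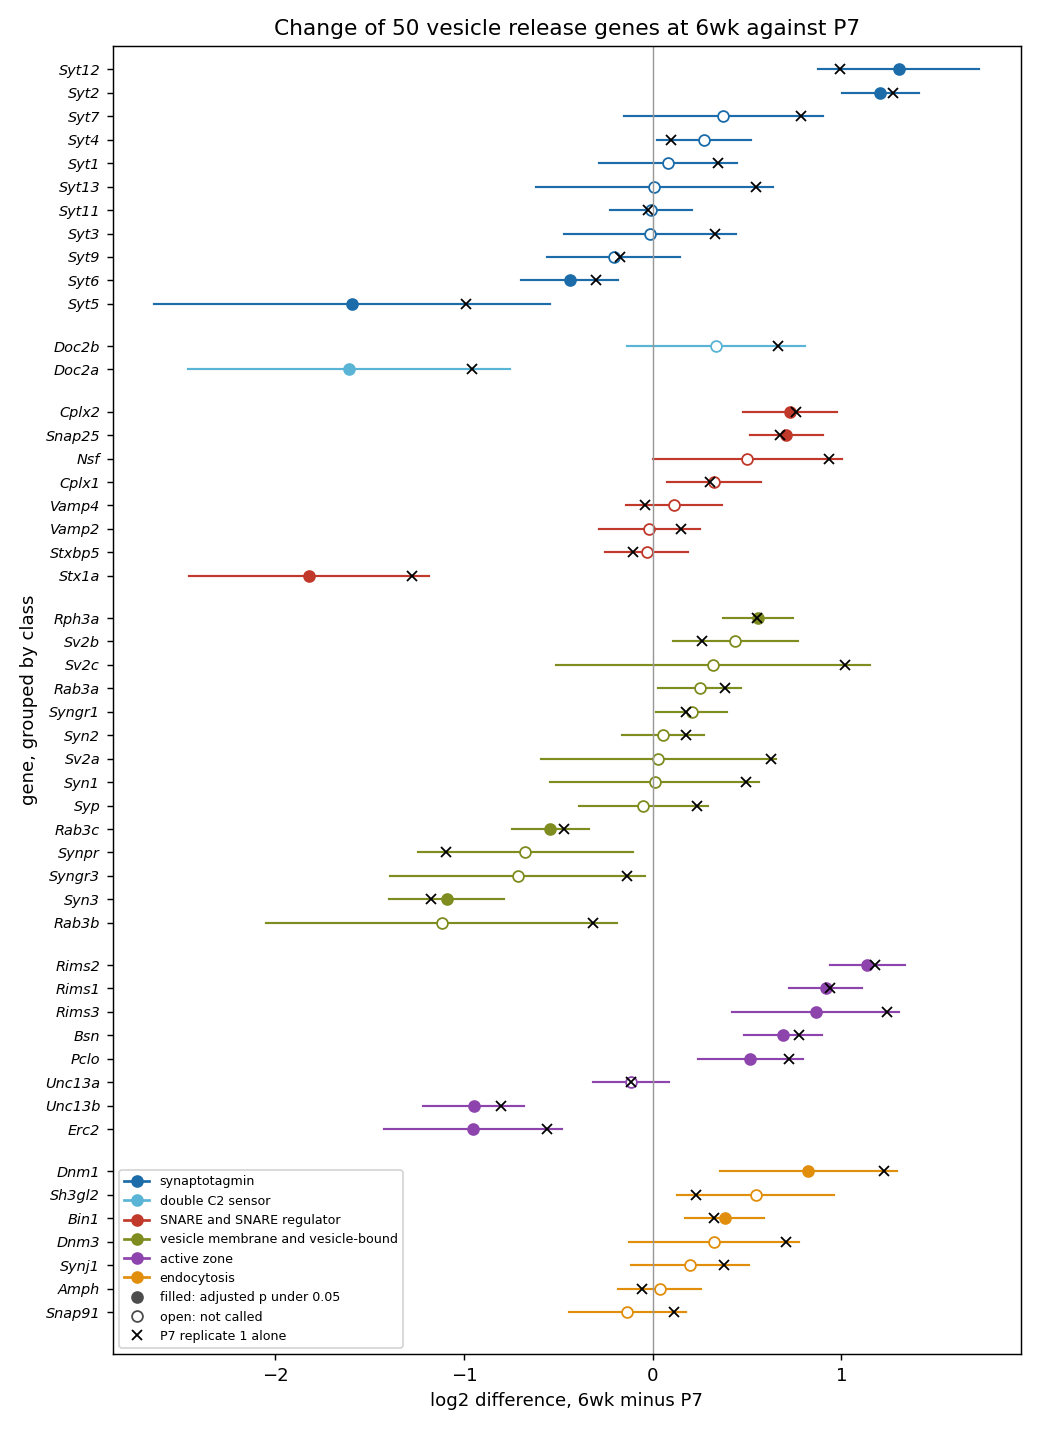
Log2 difference, 6wk minus P7, of the 50 measured members (horizontal axis), one gene per row, grouped and coloured by class. Circles show the estimate with all 6 arrays (filled when called), lines its 95% interval, and crosses the value with P7 replicate 1 as the only P7 array. Most active zone genes lie right of 0, Stx1a lies farthest left at -1.82, and the crosses of Stx1a, Syt5, Doc2a and Rab3b lie nearer to 0 than their circles.

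The active zone held the largest share of called members among the 6 classes. Of its 8 measured genes, 5 rose, 2 fell and 1 was not called, and the values of the ages did not overlap in any of the 8. Over all genes tested 21.7% were called, and the ages did not overlap in 42.1%. Among 16 further active zone genes that are not members, described below, 4 rose and 4 fell, with a median difference of -0.09. The median of the 8 members was 0.60 with all arrays, 0.68 without P7 replicate 2 and 0.75 with P7 replicate 1 alone. The 5 member rises were all scaffold genes, namely the RIM genes Rims1, Rims2 and Rims3 and the large cytomatrix genes Bsn and Pclo. The 2 member falls were the priming factor gene Unc13b and the scaffold gene Erc2. Because this class moved in both directions, the RefSeq promoter windows (GRCm38.p6, 250 bases before to 50 bases after an annotated start) of 2 risen and 2 fallen genes are shown, read 5′ to 3′ along the gene's strand. Capitals mark CpG pairs, the sites at which cytosine is mainly methylated or hydroxymethylated. The windows are chr1:22806109-22806408, minus strand, for Rims1; chr9:108190334-108190633, minus strand, for Bsn; chr4:43058703-43059002, plus strand, for Unc13b; and chr14:27622157-27622456, plus strand, for Erc2.
Rims1: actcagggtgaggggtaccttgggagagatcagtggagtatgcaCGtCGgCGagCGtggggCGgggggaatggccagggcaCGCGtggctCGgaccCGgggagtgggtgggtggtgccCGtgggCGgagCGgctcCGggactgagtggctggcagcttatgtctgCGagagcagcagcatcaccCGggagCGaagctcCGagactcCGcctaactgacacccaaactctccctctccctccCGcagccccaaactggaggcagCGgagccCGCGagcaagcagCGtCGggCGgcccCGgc
Bsn: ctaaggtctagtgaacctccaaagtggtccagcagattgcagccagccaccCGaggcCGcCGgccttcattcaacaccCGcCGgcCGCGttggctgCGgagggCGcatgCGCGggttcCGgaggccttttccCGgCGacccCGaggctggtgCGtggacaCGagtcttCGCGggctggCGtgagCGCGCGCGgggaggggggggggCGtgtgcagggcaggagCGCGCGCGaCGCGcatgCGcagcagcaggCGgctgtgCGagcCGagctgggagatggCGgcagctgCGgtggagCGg
Unc13b: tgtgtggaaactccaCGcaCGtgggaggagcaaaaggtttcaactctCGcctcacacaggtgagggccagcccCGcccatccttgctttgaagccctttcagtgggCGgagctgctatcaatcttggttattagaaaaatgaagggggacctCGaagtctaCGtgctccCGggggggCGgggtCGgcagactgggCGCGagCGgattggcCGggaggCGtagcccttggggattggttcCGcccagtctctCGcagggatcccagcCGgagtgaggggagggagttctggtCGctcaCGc
Erc2: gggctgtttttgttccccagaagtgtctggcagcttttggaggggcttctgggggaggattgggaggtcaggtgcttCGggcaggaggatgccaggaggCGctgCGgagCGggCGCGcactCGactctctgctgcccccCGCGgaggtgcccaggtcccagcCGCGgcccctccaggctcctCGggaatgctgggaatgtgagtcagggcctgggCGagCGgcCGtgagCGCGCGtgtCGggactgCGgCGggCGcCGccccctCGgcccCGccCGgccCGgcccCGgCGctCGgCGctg
These windows hold 26, 38, 20 and 31 CpG pairs in the order shown, so the risen and the fallen genes overlap in CpG number. No methylation value was analysed here, and the sequences are a description of the starts only.

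RIM proteins bind Rab3 on the vesicle and calcium channels in the membrane, and bring both within reach of each other. Rims2 read 10.48, 10.38 and 10.35 in 6wk replicates 1, 2 and 3, against 9.22, 9.32 and 9.24 in P7 replicates 1, 2 and 3. Rims1 read 10.59, 10.61 and 10.61 at 6wk, against 9.67, 9.77 and 9.63 at P7. For both genes the lowest 6wk array stood well above the highest P7 array, and P7 replicate 2 sat with the other P7 arrays. Rims2 rose by 1.14 (SE 0.08, limma adjusted p = 0.000757) and Rims1 by 0.92 (SE 0.08, adjusted p = 0.00129), and both calls held whichever array was omitted. Rims3, a short RIM that lacks most domains of the long forms, read 10.04, 10.04 and 9.93 at 6wk and 8.76, 9.50 and 9.17 at P7. It rose by 0.86 (SE 0.18, adjusted p = 0.0206) with P7 arrays that were more spread. Omitting P7 replicate 3 (adjusted p = 0.0752) or any 6wk array (0.0677 to 0.0758) ended the call, and it differed by 1.24 with P7 replicate 1 alone.

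Bassoon and piccolo are giant proteins that span the active zone and tether the vesicle cluster. Bsn read 9.62, 9.60 and 9.60 at 6wk, against 8.83, 9.03 and 8.89 at P7. Pclo read 10.36, 10.42 and 10.36 at 6wk, against 9.66, 10.04 and 9.89 at P7. The 6wk arrays were nearly equal for each gene, while P7 replicate 2 was the highest P7 array. Bsn rose by 0.69 (SE 0.09, limma adjusted p = 0.00351) and kept its call whichever array was omitted. Pclo rose by 0.52 (SE 0.12, adjusted p = 0.0242), a call that ended on omitting P7 replicate 3 (0.0892) or any 6wk array (0.0772 to 0.0877).

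Munc13 proteins open syntaxin and make docked vesicles ready to fuse, and Unc13a encodes the form most excitatory synapses of the forebrain use. Unc13a read 9.21, 9.24 and 9.37 at 6wk, against 9.39, 9.39 and 9.38 at P7. It was the active zone gene that was not called, with a difference of -0.11 and a 95% interval from -0.32 to 0.09, although its groups just failed to overlap. Unc13b, which encodes Munc13-2, read 7.51, 7.52 and 7.49 at 6wk, against 8.31, 8.66 and 8.40 at P7. Unc13b fell by 0.95 (SE 0.11, limma adjusted p = 0.00275), kept its call whichever array was omitted, and differed by -0.80 with P7 replicate 1 alone. Erc2, the ELKS-family scaffold CAST, read 8.48, 8.52 and 8.44 at 6wk, against 9.04, 9.84 and 9.41 at P7. It fell by 0.95 (SE 0.20, adjusted p = 0.0182) but by 0.56 with P7 replicate 1 alone (adjusted p = 0.0215), and the call ended on omitting P7 replicate 3 (0.0699) or any 6wk array (0.0628 to 0.0726).

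**Figure D2:**
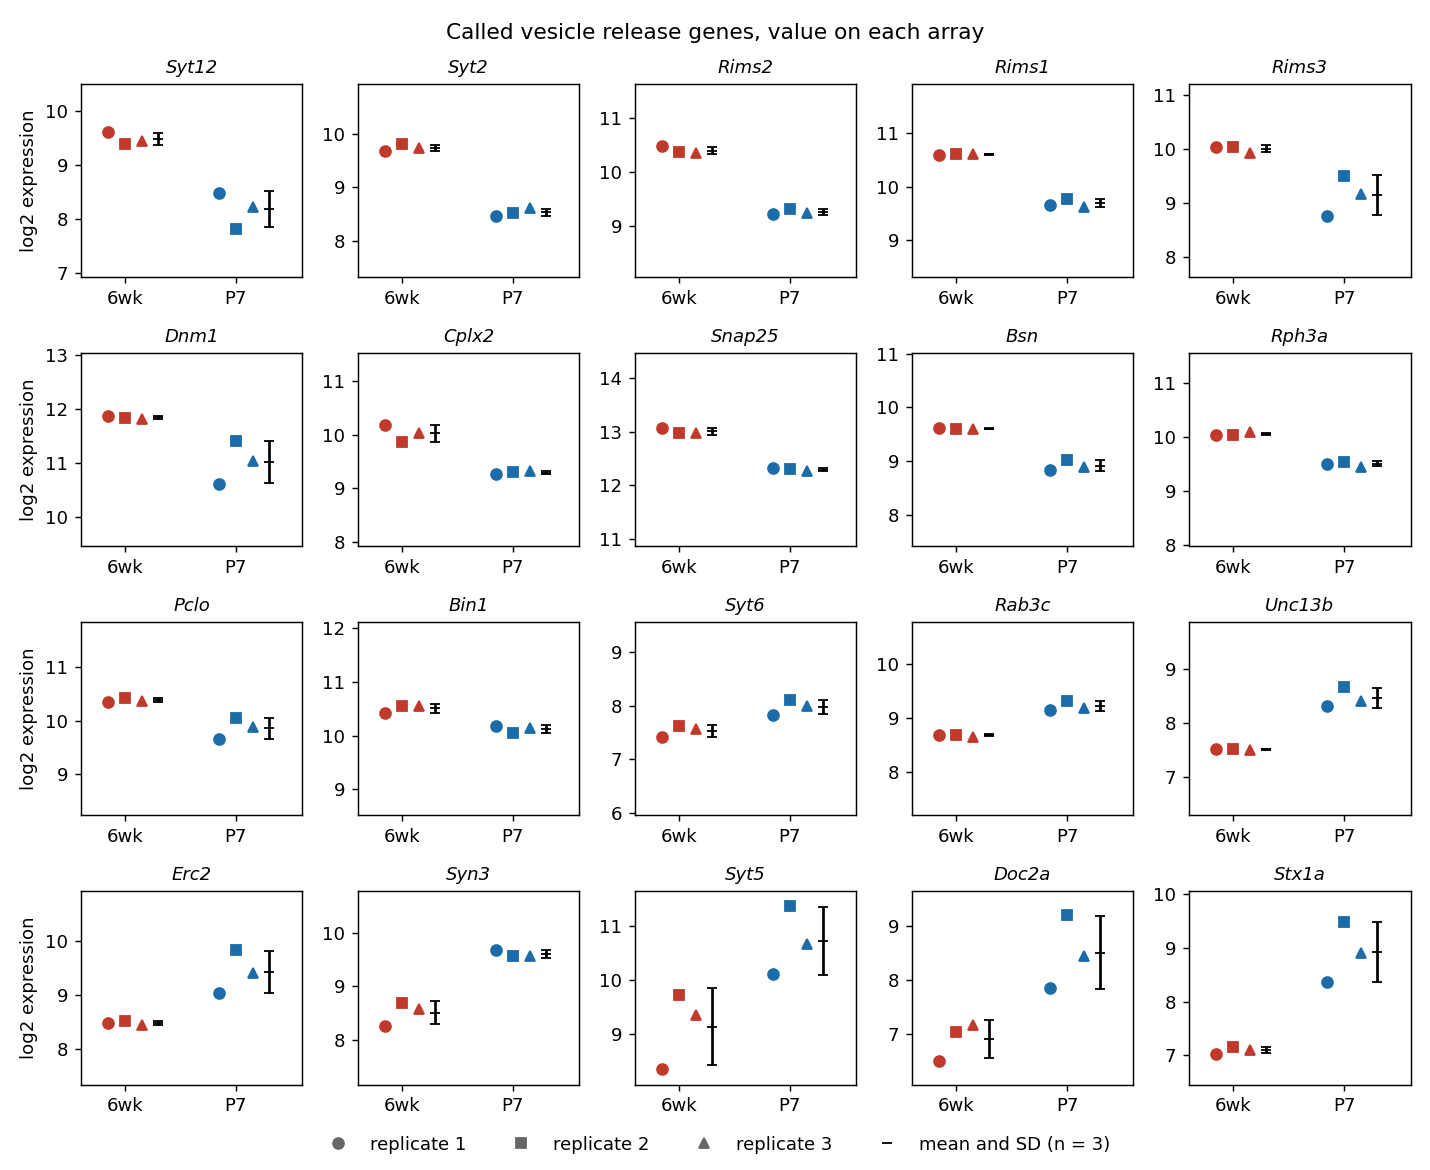
Log2 expression on each array for the 20 called members, ordered from the largest rise (Syt12) to the largest fall (Stx1a). Red symbols are 6wk arrays and blue symbols P7 arrays, symbol shape gives the replicate number, and black bars give mean and SD (n = 3); every panel spans the same range of log2 units. In Syt5, Doc2a, Stx1a and Erc2 the P7 arrays are spread out with replicate 2 on top, while in Syt2, Rims1, Rims2, Snap25 and Rph3a the P7 arrays lie close together.

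Among the 11 synaptotagmins, 2 rose, 2 fell and 7 were not called, where 21.7% of all genes were called. The class median was 0.01. Syt2 encodes a fast calcium sensor that is prominent in hindbrain and cerebellum. It read 9.69, 9.80 and 9.73 at 6wk, against 8.47, 8.53 and 8.61 at P7, with P7 arrays close together. Syt2 rose by 1.21 (SE 0.08, limma adjusted p = 0.0007), which is 2.31-fold, and by 1.27 with P7 replicate 1 alone. Syt12, which encodes a vesicle protein that does not bind calcium, read 9.61, 9.40 and 9.44 at 6wk, against 8.49, 7.82 and 8.23 at P7. Unlike most members, its lowest P7 value was in replicate 2. Syt12 rose by 1.30 (SE 0.18, adjusted p = 0.0046) and by 0.99 with P7 replicate 1 alone, and both genes kept their calls whichever array was omitted.

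The 2 synaptotagmin falls were lost in several of the alternatives. Syt5, a sensor also found on dense-core vesicles, read 8.34, 9.72 and 9.34 at 6wk, against 10.12, 11.37 and 10.68 at P7. Both ages were spread, and Syt5 was the only member whose 6wk arrays differed among themselves by at least 2-fold. Syt5 fell by 1.59 (SE 0.44, limma adjusted p = 0.0454), but the call ended on omitting P7 replicate 2 (difference -1.27, adjusted p = 0.0704), P7 replicate 3 (0.124) or any 6wk array (0.0596 to 0.109), and with P7 replicate 1 alone (-0.99, 0.269). Syt6 read 7.41, 7.62 and 7.56 at 6wk, against 7.83, 8.10 and 7.99 at P7. It fell by 0.44 (SE 0.11, adjusted p = 0.0319), a call that ended on omitting P7 replicate 3 (0.117) or any 6wk array (0.0701 to 0.109), and with P7 replicate 1 alone (0.156). Scaling also decided both calls, since after a further quantile normalization the adjusted p was 0.0586 for Syt5 and 0.0651 for Syt6.

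Syt1, the fast sensor of most forebrain synapses, read 11.19, 11.12 and 11.10 at 6wk, against 10.79, 11.36 and 11.01 at P7. Its P7 arrays lay on both sides of the 6wk arrays, and its difference of 0.08 had a 95% interval from -0.28 to 0.44. Syt7, the slow high-affinity sensor of asynchronous release, read 9.33, 9.42 and 9.39 at 6wk, against 8.59, 9.49 and 8.93 at P7. Its difference of 0.37 with all arrays was not called (limma adjusted p = 0.276), and on omitting P7 replicate 2 it rose by 0.62 (0.0144). Syt13, an atypical synaptotagmin, differed by 0.01 with all arrays, by 0.29 on omitting P7 replicate 2 (adjusted p = 0.226) and by 0.55 with P7 replicate 1 alone. Syt3 (-0.02), Syt4 (0.27), Syt9 (-0.21) and Syt11 (-0.01) were not called in any of these fits, although Syt4, whose groups did not overlap, was called after quantile normalization (0.45, adjusted p = 0.0149) and on omitting P7 replicate 1 (0.0334). Syt9 read between 3.91 and 4.51, under the quartile of dimmest rows on all 6 arrays, where a change could hardly be seen.

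Doc2 proteins are soluble calcium sensors with paired C2 domains that act in spontaneous and asynchronous release. Of the 2 genes, 1 fell and 1 was not called. Doc2a read 6.50, 7.03 and 7.17 at 6wk, against 7.86, 9.21 and 8.45 at P7. At 6wk Doc2a had a mean of 6.90, near the first quartile of those arrays (6.89 to 6.92). It fell by 1.61 (SE 0.36, limma adjusted p = 0.023), with P7 values spread over more than a doubling. It fell by 1.25 on omitting P7 replicate 2 (adjusted p = 0.0166). The call ended with P7 replicate 1 alone (-0.96, 0.0817) and on omitting P7 replicate 3 (0.0773) or any 6wk array (0.06 to 0.0822). Doc2b read 9.27, 8.95 and 9.01 at 6wk, against 8.41, 9.13 and 8.68 at P7. Its difference of 0.34 was not called (adjusted p = 0.274), and it rose by 0.53 on omitting P7 replicate 2 (0.0385).

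Of the 8 measured SNARE genes and SNARE regulators, 2 rose, 1 fell and 5 were not called, where 21.7% of all genes were called. Snap25, the plasma membrane SNARE, read 13.07, 12.96 and 12.97 at 6wk, against 12.33, 12.30 and 12.26 at P7. Cplx2, a complexin, read 10.18, 9.86 and 10.03 at 6wk, against 9.26, 9.30 and 9.32 at P7. In both genes the P7 arrays lay close together, and every 6wk array was above them. Snap25 rose by 0.71 (SE 0.08, limma adjusted p = 0.00257) and Cplx2 by 0.73 (SE 0.10, adjusted p = 0.00528), and both calls held whichever array was omitted. Each row gives 1 value per gene, and the alternative exons of Snap25 were not analysed separately.

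Stx1a, a syntaxin that pairs with SNAP-25 in the terminal membrane, had the largest fall of all members. It read 7.03 and 7.15 in 6wk replicates 1 and 2, with replicate 3 between them, against 8.37, 9.48 and 8.89 at P7. Every P7 array was more than 1 log2 unit above every 6wk array, and P7 replicate 2 was the highest. The 6wk mean of 7.09 lay just above the first quartile of the 6wk arrays (6.89 to 6.92). Stx1a fell by 1.82 (SE 0.26, limma adjusted p = 0.0057), a 3.53-fold lower level. It fell by 1.54 on omitting P7 replicate 2 (adjusted p = 0.00206) and by 1.27 with P7 replicate 1 alone (0.00495), and the call held whichever array was omitted.

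The other SNARE members were not called with all arrays. Vamp2, the main vesicle SNARE of the brain, read 11.76, 11.66 and 11.64 at 6wk, against 11.53, 11.88 and 11.70 at P7, and its difference was -0.02 (95% interval -0.28 to 0.25). Cplx1 read 11.43, 11.69 and 11.67 at 6wk, against 11.30, 11.19 and 11.34 at P7, with no overlap. Its difference of 0.32 was not called (limma adjusted p = 0.0721), but it was after centring the arrays on their medians (0.0244) or a further quantile normalization (0.0206). Nsf read 10.50, 10.67 and 10.64 at 6wk, against 9.67, 10.51 and 10.13 at P7. Its difference was 0.50 with all arrays (adjusted p = 0.14), and it rose by 0.70 on omitting P7 replicate 2 (0.0199). Vamp4, a SNARE of endosomal and bulk recycling routes (0.11), and Stxbp5, which encodes the release inhibitor tomosyn (-0.03), had 95% intervals from -0.14 to 0.37 and from -0.25 to 0.19.

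Of the 14 vesicle membrane and vesicle-bound genes, 1 rose, 2 fell and 11 were not called, with a class median of 0.02. That share of calls was near the 21.7% of all genes that were called. Rph3a, a Rab3 effector that binds calcium and phospholipids, read 10.05, 10.05 and 10.09 at 6wk, against 9.51, 9.55 and 9.45 at P7. Rph3a rose by 0.56 (SE 0.08, limma adjusted p = 0.00484), and by 0.55 with P7 replicate 1 alone. Rab3c, a Rab GTPase of the vesicle surface, read 8.68, 8.68 and 8.65 at 6wk, against 9.14, 9.32 and 9.19 at P7. Rab3c fell by 0.54 (SE 0.08, adjusted p = 0.00708). Both genes had nearly equal 6wk arrays and kept their calls whichever array was omitted.

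Synapsins coat vesicles and hold them in the reserve cluster, and of the 3 genes Syn3 alone was called. Syn3, which is expressed early in developing neurons, read 8.27, 8.69 and 8.58 at 6wk, against 9.68, 9.56 and 9.56 at P7. It fell by 1.09 (SE 0.13, limma adjusted p = 0.00272), a call that held whichever array was omitted, and by 1.17 with P7 replicate 1 alone. Syn1 read 10.77, 11.03 and 11.03 at 6wk, against 10.45, 11.36 and 10.99 at P7. Syn2 read 10.71, 10.73 and 10.66 at 6wk, against 10.52, 10.74 and 10.67 at P7. Neither was called, and their differences were 0.01 (95% interval -0.54 to 0.56) and 0.05 (95% interval -0.16 to 0.27).

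Several membrane proteins of the vesicle depended on which P7 arrays were used. Synpr, which encodes synaptoporin, read 8.67, 8.63 and 8.31 at 6wk, against 9.64, 8.73 and 9.28 at P7. The P7 array nearest to the 6wk values was replicate 2, and Synpr was not called with all arrays (difference -0.68, limma adjusted p = 0.0914) but fell by 0.92 on omitting that array (0.00979). Rab3b read 8.41, 9.05 and 8.93 at 6wk, against 9.11, 10.64 and 9.99 at P7, and Syngr3, a synaptogyrin, read 9.90 and 10.21 in 6wk replicates 1 and 2, with replicate 3 between them, against 10.17, 11.32 and 10.76 at P7. In these genes P7 replicate 1 was close to the 6wk arrays, so the differences of -1.12 (adjusted p = 0.0886) and -0.72 (0.122) shrank to -0.32 and -0.14 with that array alone. On omitting it, Rab3b fell by 1.52 (0.0134) and Syngr3 by 1.01 (0.0169). The SV2 glycoproteins, which act in priming, were not called with all arrays, with differences of 0.03 for Sv2a, 0.44 for Sv2b and 0.32 for Sv2c. The Sv2a difference was 0.26 on omitting P7 replicate 2 (adjusted p = 0.437) and 0.63 with P7 replicate 1 alone. After a further quantile normalization of all arrays, or on omitting P7 replicate 1, Sv2b was called (0.0298 and 0.0408).

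Synaptophysin, an abundant protein of the vesicle membrane and a common measure of synapse number, showed no called change. Syp read 11.33, 11.41 and 11.37 at 6wk, against 11.14, 11.66 and 11.46 at P7, and its difference was -0.05 (95% interval -0.39 to 0.29). Syngr1 (0.21, limma adjusted p = 0.111) and Rab3a (0.25, adjusted p = 0.105) had groups that did not overlap but were not called as deposited, and both were after centring the arrays. Rab3a read 9.74, 9.75 and 9.79 at 6wk, against 9.37, 9.60 and 9.55 at P7.

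Of the 7 endocytosis genes 2 rose and 5 were not called, where 21.7% of all genes were called. The class median was 0.33, and the 1 negative difference was that of Snap91, with a 95% interval from -0.44 to 0.18. Dnm1, the neuronal dynamin that cuts vesicles from the membrane, read 11.88, 11.83 and 11.81 at 6wk, against 10.61, 11.40 and 11.03 at P7. Dnm1 rose by 0.82 (SE 0.19, limma adjusted p = 0.0284), and by 1.23 with P7 replicate 1 alone. Omitting P7 replicate 3 (0.0943) or any 6wk array (0.0883 to 0.095) ended the call. Bin1, which encodes the membrane-bending protein amphiphysin 2, read 10.42, 10.55 and 10.55 at 6wk, against 10.18, 10.05 and 10.14 at P7. Bin1 rose by 0.38 (SE 0.09, adjusted p = 0.0257), and lost its call on omitting P7 replicate 3 (0.101) or any 6wk array (0.0553 to 0.11), and with P7 replicate 1 alone (0.101).

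Sh3gl2, which encodes endophilin A1, read 11.27, 11.16 and 11.11 at 6wk, against 10.96, 10.28 and 10.67 at P7. The groups did not overlap, yet the difference of 0.55 was not called as deposited (limma adjusted p = 0.0711), though it was after either rescaling or on omitting P7 replicate 1 (0.0189). Dnm3 was not called with all arrays (difference 0.33, adjusted p = 0.268) and rose by 0.52 on omitting P7 replicate 2 (0.032). Synj1, the lipid phosphatase synaptojanin 1 (0.20), Amph, amphiphysin (0.04), and Snap91, the clathrin adaptor AP180 (-0.13), were not called in either fit. In bulk tissue such as this, fewer cells or terminals of a kind and less RNA per cell cannot be told apart, for any member.

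The P7 SD was larger than the 6wk SD in 42 of 50 members (84%), beside 70.2% of all genes. In 37 of 50 members (74%) P7 replicate 2 gave a higher value than P7 replicate 1, beside 51.8% of all genes, and in 23 members (46%) P7 replicate 2 was the highest of the 6 arrays, against 29.9% of all genes. P7 replicate 3 lay between the other P7 replicates in 40 members (80%), as it did in 67.6% of all genes. The gap between P7 replicates 2 and 1 was at least 2-fold in 8 members, namely Syt5, Syt13, Doc2a, Stx1a, Sv2a, Sv2c, Syngr3 and Rab3b, all higher in replicate 2. The value in P7 replicate 2 was above that in replicate 1 for 9 of the 12 rises and for 7 of the 8 falls, all but Syn3. Those 7 falls were smaller with P7 replicate 1 alone, which follows in large part from their low value in that array. In P7 replicate 2 all 6 aminergic neuron markers were higher, and 5 of 6 granule neuron markers lower, than in P7 replicate 1, and their part in these values was not tested. The falls of Stx1a, Syn3, Rab3c, Unc13b and Erc2 were called with P7 replicate 1 alone.

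**Figure D3:**
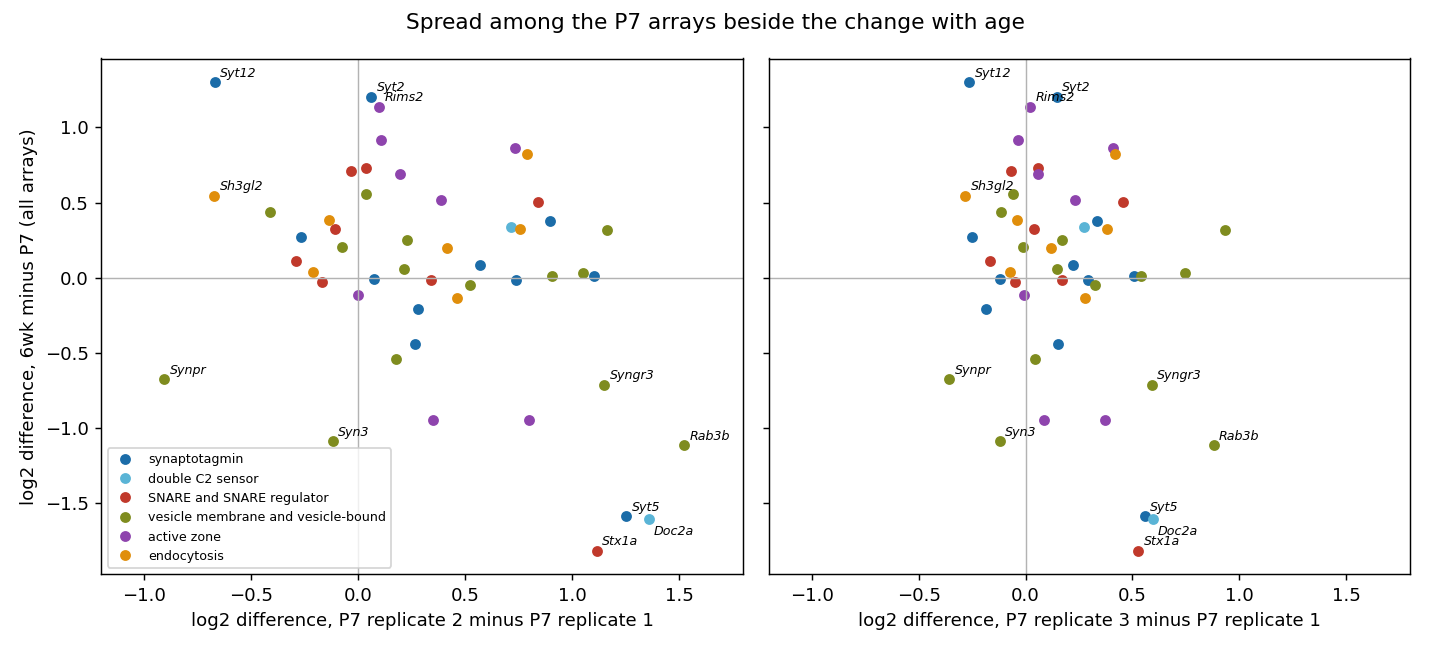
Each point is 1 of the 50 members, coloured by class. The vertical axis is the log2 difference 6wk minus P7 with all arrays, and the horizontal axis is the log2 difference between P7 replicate 2 and replicate 1 (left panel) or replicate 3 and replicate 1 (right panel); the axes share the P7 values. Rab3b, Doc2a, Syt5, Syngr3 and Stx1a lie at the lower right in both panels, and Syt2 and Rims2 lie high and near 0 on the horizontal axis.

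Paralogues of a family were compared within arrays, where the gap between 2 genes is free of array-wide scale. The size of a gap has no meaning of its own, since the genes have different probes, and its shift between ages was tested for 10 pairs with a two-sided exact permutation test. With 3 arrays against 3 the smallest p this test can give is 0.1, so no pair could pass 0.05. The gap of Syt2 over Syt1 was -1.51, -1.32 and -1.36 at 6wk, against -2.32, -2.83 and -2.40 at P7, a shift of 1.12 towards Syt2. That of Rab3c over Rab3a was -1.06, -1.07 and -1.14 at 6wk, against -0.23, -0.29 and -0.36 at P7, a shift of -0.79. The gap of Dnm3 over Dnm1 was -1.70, -1.62 and -1.58 at 6wk, against -1.11, -1.14 and -1.15 at P7, a shift of -0.50. P7 replicate 2 did not stand apart for Dnm3 over Dnm1 or Rab3c over Rab3a, although Dnm1 and Dnm3 each varied widely among the P7 arrays. Shifts were also seen without overlap for Syngr3 over Syngr1 (-0.92), Cplx1 over Cplx2 (-0.40), Rims2 over Rims1 (0.22) and Pclo over Bsn (-0.17). The Syngr3 shift was -0.61 without P7 replicate 2, and the Cplx1 shift -0.24 without 6wk replicate 1. These 7 pairs all had exact permutation p = 0.1, adjusted 0.143 over the 10 pairs. The gaps of Sv2b and Sv2c over Sv2a and of Syn2 over Syn1 overlapped between the ages (exact p = 0.5, 0.3 and 0.9).

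**Figure D4:**
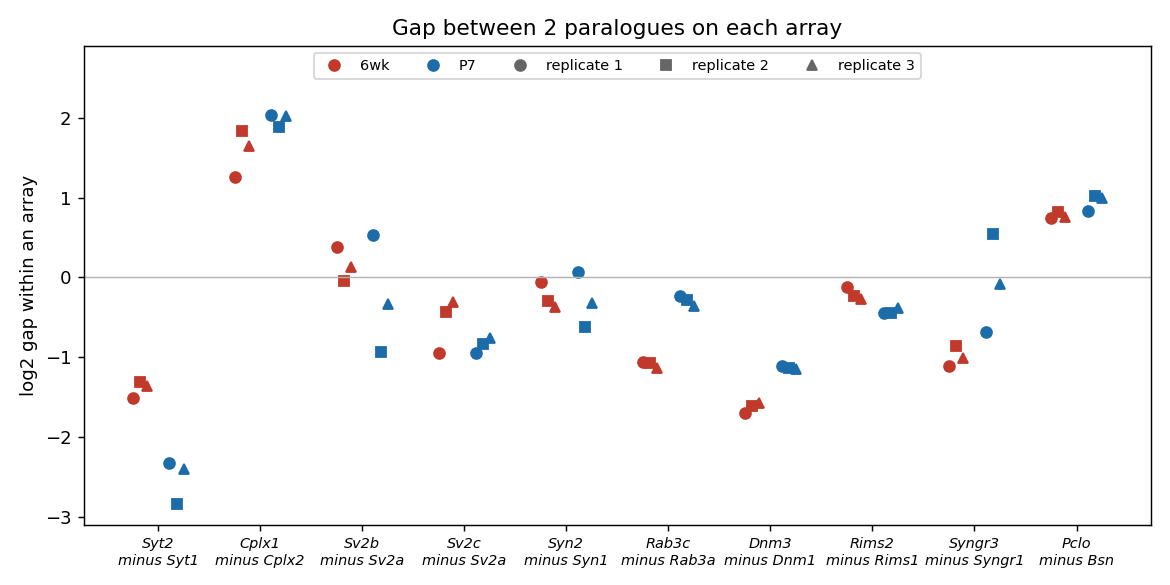
Log2 gap between 2 paralogues on each array, for 10 pairs. Red symbols on the left of each pair are 6wk arrays, blue symbols on the right are P7 arrays, and symbol shape gives the replicate number. The ages do not overlap in 7 pairs, among them Syt2 minus Syt1, Rab3c minus Rab3a and Dnm3 minus Dnm1.

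The rest of the vesicle cycle was described through 95 measured genes of a list of 104 that are not members. In that list 14 genes rose (14.7%) and 13 fell (13.7%), beside 8.26% and 13.4% of all genes, and the median difference was -0.03. Among its endocytosis genes 3 rose and 3 fell of 26. Synj2, a second synaptojanin, rose by 0.96 (SE 0.10, limma adjusted p = 0.00192), and Pacsin1, the neuronal syndapin that binds dynamin, rose by 0.75 (adjusted p = 0.00581). Sh3gl3, which encodes endophilin A3, read 7.42, 7.91 and 7.75 at 6wk, against 8.96, 9.19 and 9.15 at P7, and fell by 1.41 (SE 0.15, adjusted p = 0.00195). Ap2s1, the small subunit of the AP-2 clathrin adaptor, fell by 0.60 (adjusted p = 0.0153), a call that ended on omitting P7 replicate 3 (0.0581), 6wk replicate 1 (0.0642) or 6wk replicate 3 (0.0704) and with P7 replicate 1 alone (0.0647).

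Of the 16 further active zone genes, 4 rose and 4 fell. Cask, a scaffold kinase that links adhesion molecules to the release site, read 9.80, 9.80 and 9.76 at 6wk, against 10.88, 10.68 and 10.75 at P7, and fell by 0.99 (SE 0.09, limma adjusted p = 0.00127). Lin7a, which encodes a partner of Cask, rose by 0.76 (SE 0.14, adjusted p = 0.0108). The liprin-beta gene Ppfibp1 fell by 0.88 (adjusted p = 0.0151) and Rimbp3, a RIM-binding protein gene, by 0.80 (adjusted p = 0.0108), with 6wk means of 6.62 and 6.58 that lay among the dimmest quartile of rows, against P7 means above it. The class of 12 further synaptotagmin, synaptotagmin-like and Doc2 genes had 1 rise, Syt10, a sensor for release of IGF-1 in olfactory neurons of the mouse. It read 9.26, 9.18 and 9.18 at 6wk, against 7.13, 8.42 and 7.53 at P7, and rose by 1.51 (SE 0.31, adjusted p = 0.0178). Syt16 fell by 1.36 (adjusted p = 0.0332), but by 0.65 with P7 replicate 1 alone, where it was not called (0.097). Among SNARE-related genes Vamp8, a SNARE of secretory and endosomal membranes, rose by 1.08 (adjusted p = 0.0035), and Stxbp5l, the second tomosyn gene, by 1.07 (adjusted p = 0.0398) with all arrays and by 0.52 with P7 replicate 1 alone (0.0339). Among the fits that omit 1 array, the call of Lin7a was lost only without P7 replicate 3 (adjusted p = 0.0546). The calls of Ppfibp1, Syt10, Syt16 and Stxbp5l were each lost on omitting P7 replicate 3 or any 6wk array, with adjusted p up to 0.0681, 0.0736, 0.113 and 0.123.

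Promoter windows were found in RefSeq for 37 of the 50 measured members. Taking for each gene the window with the most CpG pairs, members held 8 to 49 pairs with a median of 22. The median was 8 over all 27025 genes with a window. That wider set was not limited to the 17858 genes tested on the arrays, so the 2 medians come from unlike sets of genes. The median was 27 (9 to 38) in the 8 risen members with a window, 19 (11 to 31) in the 5 fallen and 23 (8 to 49) in the 24 that were not called, so these ranges overlapped. A cyclic AMP response element, TGACGTCA (the same on both strands), was found in the windows of Sh3gl2 and Syn1, against 1.79% of all windows. The core of the NRF1 motif, GCGCATGC on either strand, was found in the windows of Bsn (4 matches counted over both strands), Stxbp5 (2) and Syn1 (1), against 2.71% of all windows. Overlapping matches on opposite strands were counted separately, as happened in Bsn, so these are not numbers of separate sites. Both of these motifs hold CpG pairs and so overlap with the CpG counts. The left part of the REST element, TTCAGCACC on either strand, was found for Syn1 and Unc13a, against 0.371%. Of these genes only Bsn was called, and no binding was measured. The percentages are of all windows, also those of genes not tested on the arrays, while a member was counted if any of its windows matched.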

How the data were processed

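Total RNA of C57BL/6 mouse cerebellum was depleted of ribosomal RNA and hybridised to Affymetrix mouse exon arrays as biotin-labelled cDNA, per the labels' protocols. The authors deposited log2 values. RMA, Affymetrix Power Tools and mm9 appear in the submitters' processing notes, with no version, filter or order of steps. The table was used unchanged: 23750 rows, of which 18463 have 1 gene symbol, 1799 several and 3488 none in the array's annotation table. For 471 genes with several rows the row with the highest mean was kept, which left 17858 genes.

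Differences, 6wk minus P7, come from lmFit and eBayes in limma 3.58.1 under R 4.3.3, without a replicate block, and a two-sided p adjusted by Benjamini-Hochberg under 0.05 was called. Levels are per array, SE is that of the limma difference, and intervals are 95% intervals of that fit. Classes are described by counts and medians and were not tested. All members are named; of the other vesicle cycle genes up to 6 rises and 6 falls with the largest differences among called genes without overlap are named. Members, classes, lists and pairs were chosen with earlier results of these data known. Alternatives were a replicate block, 2 further scalings, a filter on dim rows, the mean of a gene's rows, array weights, a variance trend, each array left out, and, added later, P7 replicate 1 alone. Data for 17858 genes, 200 of them changed, were simulated with independent normal noise and the same SD of a gene at both ages. There 79% of 2-fold and 100% of 4-fold changes were called, and 7.25% of calls were false. The larger spread among the real P7 arrays was not simulated, so these rates need not hold for the real arrays. Promoter windows are RefSeq's on GRCm38.p6, and no coordinate was converted between builds. The markers of cell types were lists of 4 to 7 genes.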

Additional observations from a re-analysis of the deposited data

How the results depend on the processing

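Among the 50 members, no call reversed its direction under any alternative. A replicate block, with the replicate number in the labels as a term, gave 12 rises and 9 falls among members, and 1199 rises and 2074 falls over all genes. Under the block Bin1 lost its call (adjusted p = 0.071), while Sv2b (0.0414) and Rab3b (0.0235) gained one. Deviations of arrays with the same number correlated at 0.274, 0.141 and -0.06, and not every array correlated best with its own number, so the numbers are not shown to pair the arrays. Array weights gave 23 member rises and 11 falls, and 26 rises and 31 falls among the other vesicle cycle genes, while calls over all genes grew likewise to 3332 rises and 5512 falls. Those weights rested largely on 1 P7 array (6.66 for replicate 3, beside 0.339 and 0.263 for replicates 1 and 2) and came from limma's gene-by-gene method, since its REML method did not converge. Quantile normalization moved the medians to 0.21 for all members, 0.34 for SNARE genes, 0.41 for endocytosis and 0.0886 for the other vesicle cycle genes, and the Dnm3 over Dnm1 shift to -0.58. Centring on array medians gave 0.19 for all members, 0.42 for endocytosis and 0.0717 for the other genes, and the median over all genes moved to 0.03 (quantile) or 0.04 (centred). Of the members that were not called, Syt3, Syt11, Stxbp5, Vamp2, Syp and Snap91 changed sign under a scaling. With P7 replicate 1 alone, an alternative chosen after seeing the data, 8 other vesicle cycle genes fell, and medians were 0.28 for all members, 0.33 for synaptotagmins, -0.15 for Doc2 genes, 0.75 for the active zone and 0.0465 for the other genes. Omitting each array in turn gave 8 to 16 member rises, 4 to 10 member falls, and 5 to 17 rises and 3 to 20 falls among the other vesicle cycle genes, while calls over all genes ran from 682 to 1788 rises and from 965 to 3073 falls. Over the same fits the median ran from 0.0443 to 0.23 for all members, from -0.21 (without P7 replicate 1) to 0.14 (without P7 replicate 2) for vesicle membrane genes and from 0.14 (without P7 replicate 1) to 0.34 for endocytosis. The cause of these moves was not tested, beyond the fewer arrays in each such fit. Without dim rows, with a variance trend or with the mean of a gene's rows, member calls changed for Cplx1 only, which was called with the trend. With 3 arrays an age, and 1 value per gene, changes near background or in single exons may go unseen.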
